A study of Drosophila melanogaster with 4 samples.

Results

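The locus of decapentaplegic (dpp, CG9885) on chromosome arm 2L of Drosophila melanogaster was described by its regions enriched for monomethylated lysine 4 of histone H3 (H3K4me1). Regions were chosen by position alone: every enriched region that shared at least 1 base with 2L:2420000-2490000 (FlyBase release 5) was taken, which gave 11 of 7177 regions in ChIP replicate 1, 14 of 9903 in ChIP replicate 2 and 8 of 9501 in a combined list for the whole series. The dpp transcription unit spans about 2L:2428000-2460000, and the disc regulatory region lies on the side of higher coordinates, called downstream here. The window was read in 3 parts: an upstream part of 8 kb, the transcription unit of 32 kb and a downstream part of 30 kb.

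The mark was measured by chromatin immunoprecipitation and sequencing (ChIP-seq) in nuclei of third-instar larvae of the wild-type strain Oregon-R, with 2 ChIP samples and 2 input samples of sheared chromatin. All samples shared this strain, stage and wild-type genotype, no treatment is named in the labels, and both ChIP samples used the same lot of the antibody ab8895. The deposited files give a region's start, end and score but no read counts, so the depth behind each value is unknown. There was 1 group of ChIP samples and no region list for the inputs, so values are given per replicate with the mean and SD over both, and no exact test that permutes samples could reach 0.05. The labels do not say that the replicates came from separate cultures, so their spread may be technical.

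Dpp is a secreted ligand of the bone morphogenetic protein family and acts as a morphogen, a signal whose level patterns a field of cells. In the imaginal discs, the larval pouches that form the adult appendages, dpp is transcribed in restricted domains such as the stripe along the boundary between anterior and posterior compartments of the wing disc. Its regulatory sequence is classically divided into a shortvein region on the 5′ side, a region around the transcribed sequence needed in the early embryo, and a long disc region on the 3′ side with the enhancers for disc expression. H3K4me1 is known from enhancers, both active and poised, and from the sides of promoters in use. Nuclei of whole larvae mix all tissues, so fewer nuclei with the mark and less mark per nucleus cannot be told apart, and no region can be given to the discs or to another tissue.

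H3K4me1 covered most of the dpp locus in both replicates. Of the 70 kb window, 47.7 kb (68.2%) lay in enriched regions in replicate 1 and 53.1 kb (75.9%) in replicate 2, a mean of 72.0% ± 5.43 (SD, n = 2). The arm 2L as a whole was covered to 25.1% and 26.4%, so the locus was covered 2.72 and 2.87 times as densely as its arm. In the combined list the covered share was 88.6%, against 31.4% for the arm. That list draws on these ChIP samples too, so it is no independent measurement.

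Among the 328 consecutive 70 kb windows of 2L, laid so that the dpp window was one of them, the dpp window ranked 7th from the top by covered share in replicate 1 and 10th in replicate 2. It was the 3rd by the combined list. The median window was covered to 23.7%, 26.0% and 29.8% in these lists, and the most covered to 88.7%, 91.0% and 93.0%. Only 3 windows exceeded dpp in both replicates: 2L:460001-530000, 2L:810001-880000 and 2L:2140001-2210000. At the other end, 44 windows held no enriched base in either replicate. The rank depended on the length of the window. The mean percentile over the replicates was 97.6 ± 0.647 (SD, n = 2) at 70 kb. It was 92.4 for a 100 kb window with the same centre, which takes in unmarked sequence on both sides. A 50 kb window also stood lower, at 94.9.

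**Figure D1:**
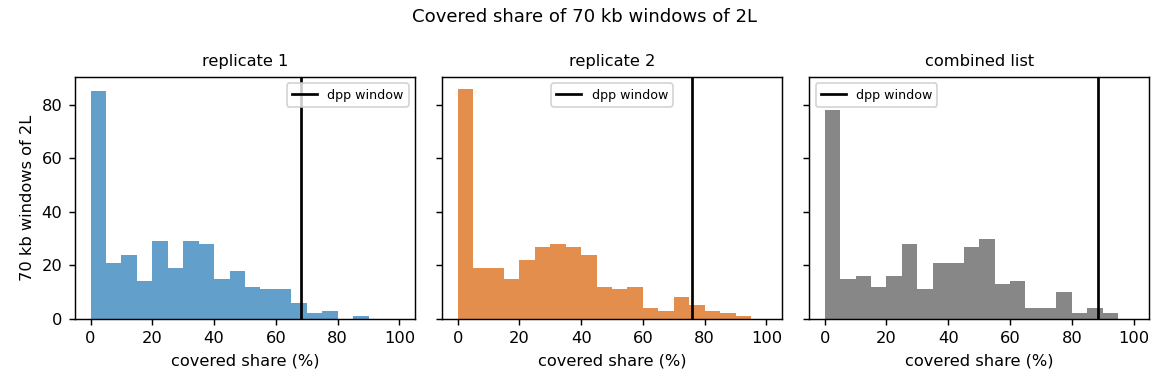
Histograms of the share of bases (%) inside H3K4me1-enriched regions over the 328 windows of 70 kb on 2L, for replicate 1, replicate 2 and the combined list, with bars counting windows and a vertical line at the dpp window. The line stands at 68.2%, 75.9% and 88.6%, in the sparse upper end of each histogram.

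The 3 parts of the locus were all marked, with no part free of H3K4me1. The transcription unit was covered to 70.6% in replicate 1 and 71.8% in replicate 2 (mean 71.2% ± 0.784, SD, n = 2). The downstream part was covered to 64.8% and 77.4% (71.1% ± 8.90), and the short upstream part to 71.1% and 86.6% (78.8% ± 11.0). The gene and its downstream side therefore differed by less than the spread between replicates, and they changed order: the gene was the more covered in replicate 1 and the downstream part in replicate 2. Against stretches of their own length on 2L, the transcription unit ranked 50th and 60th of 718 and the downstream part 78th and 49th of 767.

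**Figure D2:**
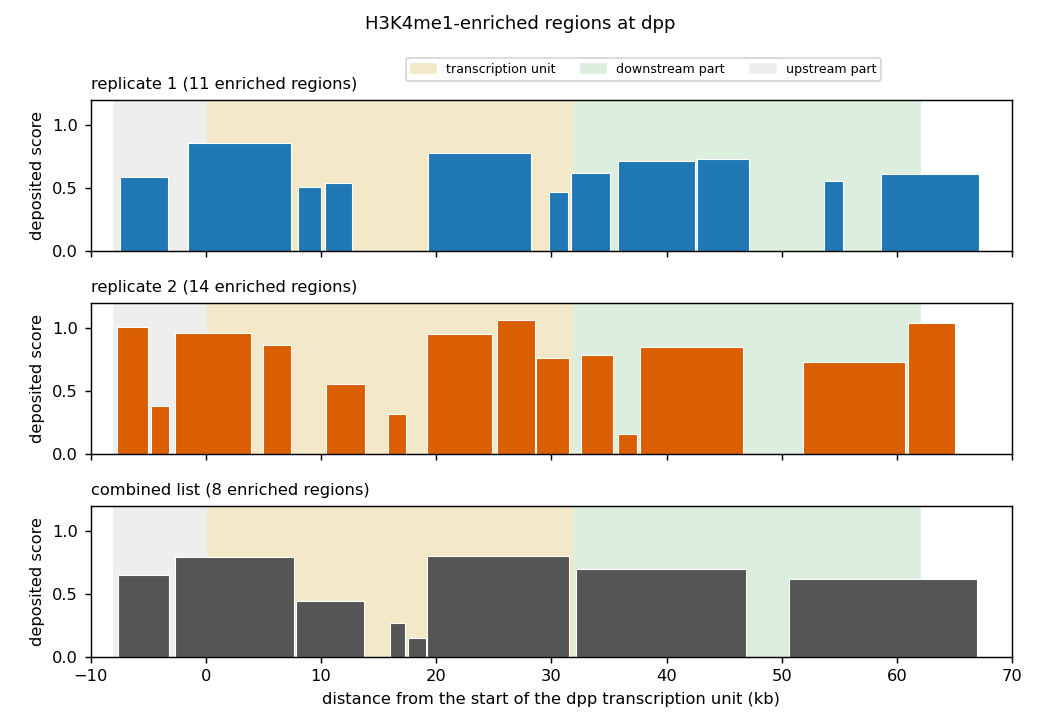
Enriched regions at dpp in replicate 1, replicate 2 and the combined list, drawn as bars from start to end against distance from the start of the transcription unit (kb), with the deposited score as height; shading marks the upstream part, the transcription unit and the downstream part. Replicate 1 has 11 bars, replicate 2 has 14 and the combined list 8, with open intervals inside the transcription unit and in the downstream part.

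The upstream part and the start of the transcription unit carried a block of H3K4me1 in both replicates. At its far end, replicate 1 held 2L:2420535-2424684 with a score of 0.588, where replicate 2 held 2L:2420304-2422942 at 1.00 and 2L:2423222-2424807 at 0.378. The score is the authors' own value for a region, above 0 for enrichment, with no scale stated in the sources used here. It is compared only within a list, here by its percentile among all regions of the same list. These 3 regions stood at the percentiles 34.5, 82.1 and 16.8. Replicate 2 thus divided the block into a high and a low region where replicate 1 gave a single one below its median.

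The start of the transcription unit, where the 5′ end of the gene lies, was inside an enriched region in all 3 lists. In replicate 1 this was 2L:2426466-2435402, which is 8.94 kb wide and reached from 1.53 kb before the start to 7.40 kb inside. Its score of 0.859 (percentile 71.3) was the highest at the locus in that replicate. Replicate 2 marked the same stretch with 2L:2425299-2431907 (6.61 kb, score 0.962, percentile 79.6) and 2L:2433003-2435431 (2.43 kb, score 0.868, percentile 72.6), which together with the gap between them end 29 bases from the end of the replicate 1 region. The combined list joined them as 2L:2425305-2435665 (10.4 kb, score 0.791, percentile 77.9). Each of these regions scored above the median of its list.

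Further into the transcription unit the region scores were lower and the replicates differed. Replicate 1 held 2L:2436023-2438028 (score 0.507), which met no region of replicate 2, and 2L:2438339-2440686 (score 0.540), 94.5% of which replicate 2 covered with 2L:2438468-2441800 (score 0.557). Replicate 2 in turn held 2L:2443845-2445390 (score 0.316), which met no region of replicate 1. These were the only regions at the locus not met by the other replicate. The scores of all 4 were below the medians of their lists, at the percentiles 20.5, 26.1, 41.3 and 11.3. Among regions of like width, with each list divided into 20 groups by width, they stood at 58.8, 12.1, 23.1 and 39.1. The regions over the start of the transcription unit stood at 32.2 in replicate 1 and at 53.0 and 73.7 in replicate 2. For its width, 2L:2436023-2438028 was thus above the replicate 1 region at the start, while the other 3 were below those of their replicate. The combined list placed 2L:2435838-2441743 (score 0.446) and 2 regions of 1.26 and 1.55 kb here, 2L:2443986-2445249 and 2L:2445561-2447109. The last of these met neither replicate and had the lowest score of the locus in that list, 0.146 (percentile 2.39).

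The distal side of the gene carried another block, from 19.2 kb inside the transcription unit almost to its end. Replicate 1 held 2L:2447303-2456224 (8.92 kb, score 0.780, percentile 62.9), of which replicate 2 covered 95.7%, and the narrow 2L:2457802-2459402 (score 0.470, percentile 14.5). Replicate 2 divided the block into 2L:2447188-2452859 (score 0.952), 2L:2453245-2456538 (1.06) and 2L:2456707-2459487 (0.759). The middle one had the highest score at the locus in that replicate, at percentile 85.7. In the combined list the block was 1 region, 2L:2447185-2459518, of 12.3 kb with a score of 0.798, the highest of the locus there. Among regions of like width the score percentiles were 16.3 and 59.9 in replicate 1 and 56.1, 85.2 and 59.3 in replicate 2. For the combined region the like-width percentile was 27.7, so the block did not stand high for its width in every list. The left edges of this block in the replicates lay 115 bases apart and its right edges 85 bases apart.

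At the end of the transcription unit the lists parted slightly. The position taken as the end lay in 2L:2459673-2463130 in replicate 1 (score 0.618), while in replicate 2 it lay in the gap of 1.08 kb between the end of the block in the gene and the next region, 2L:2460567-2463323 (score 0.781). RefSeq's table for release 6 was used for the order of gene starts alone. In that order dpp is followed by the tyrosine tRNA genes tRNA:Tyr-GTA-1-2 and tRNA:Tyr-GTA-1-3, by lncRNA:CR45286, by Slh (a protein of vesicle transport) and by oaf (out at first). On the other side dpp is preceded by lncRNA:CR44912, CG44139, CG9886 and CG34447. Gene ends were not compared, so a listed gene may overlap the dpp transcription unit. No exon, intron or promoter is assigned to a region here, since gene models of release 5 were not used.

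The proximal side of the downstream part was marked almost without interruption in both replicates. After the region at the gene's end, replicate 1 held 2L:2463774-2470501 (6.73 kb, score 0.715) and 2L:2470622-2475164 (4.54 kb, score 0.726), separated by 120 bases. Replicate 2 held the low 2L:2463807-2465407 (score 0.157, percentile 2.45) and the wide 2L:2465706-2474616 (8.91 kb, score 0.845, percentile 70.8). Both replicates thus ended this block within 548 bases of each other. The combined list made 1 region of it, 2L:2460167-2474900, which is 14.7 kb wide with a score of 0.697, and 87.9% of its bases were in both replicates.

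On the distal side of the downstream part the replicates differed in how much they marked. Replicate 1 held the narrow 2L:2481650-2483336 (1.69 kb, score 0.553) and then 2L:2486645-2495120 (8.48 kb, score 0.609), which runs out of the window. Replicate 2 covered the stretch with 2L:2479840-2488731 (8.89 kb, score 0.733) and 2L:2488943-2493017 (4.08 kb, score 1.04, percentile 84.2). Of the wide replicate 2 region, replicate 1 covered 42.4%. In the 5 kb bin from 55 to 60 kb after the start of the transcription unit, 33.8% was covered in replicate 1 and 100% in replicate 2, the widest difference of any 5 kb bin in the window. The combined list held 2L:2478609-2494954 at a width of 16.3 kb and a score of 0.618, of which 48.0% was in both replicates. Like replicate 2, it covered all of 2L:2483337-2486644, a gap in replicate 1. Its right end was nearer to that of replicate 1 (2495120) than to that of replicate 2 (2493017).

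Inside the window the marked blocks were separated mostly by short gaps. Replicate 1 had 10 gaps between its regions and replicate 2 had 13, with medians of 1110 and 491 bases, where all gaps of 2L had medians of 3286 and 2104. Gaps under 1 kb numbered 5 of 10 and 7 of 13, where the share over 2L was 25.8% and 32.8%, and 5 of 7 in the combined list (35.3% over 2L). The gaps of 2L include those of sparsely covered and empty windows, and a highly covered window leaves less room for long gaps. These medians and counts were not compared with windows of like coverage, so they are no trait separate from the coverage. The gaps of at least 2 kb in replicate 1 were 2L:2440687-2447302 (6616 bases) in the gene and 2L:2475165-2481649 (6485 bases) and 2L:2483337-2486644 (3308 bases) downstream. In replicate 2 they were 2L:2435432-2438467 (3036 bases) and 2L:2441801-2443844 (2044 bases) in the gene and 2L:2474617-2479839 (5223 bases) downstream.

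A pair of these openings recurred in every list. The first, inside the transcription unit, was free of regions at 2L:2441801-2443844 in all 3 lists. The second, in the downstream part, was free at 2L:2475165-2479839 in both replicates, and the combined list covered 26.3% of it. The longest gap was 6616 bases in replicate 1 and 5223 in replicate 2 (mean 5919.5 ± 985, SD, n = 2), where the median 70 kb window of 2L had a longest gap of 31892.5 and 27315.5 bases. A longer longest gap than at dpp was found in 323 and 319 of the 328 windows. In the 5 windows most like dpp in covered share, named below, it ran from 6858 to 14633 and from 6688 to 10746 bases. In the 3 windows above dpp in both replicates it ran from 4855 to 6648 and from 3087 to 5424 bases. The dpp values were thus below all 5 and within the range of the 3. A gap says only that no region was called there. No region named depleted overlapped the window in any list, where replicate 2 holds 13 and the combined list 2 on all of 2L.

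Scores at the locus stood below the middle of the list in replicate 1 and above it in replicate 2 and in the combined list. The 11 scores in replicate 1 ran from 0.470 to 0.859 with a median of 0.609, under the median of 0.685 of all regions of that list, and 4 of the 11 were above it (50% of all regions by construction). The 14 scores in replicate 2 ran from 0.157 to 1.06 with a median of 0.813, over the list's median of 0.625, and 10 of the 14 were above it. The replicates thus stood on opposite sides of their lists, with median percentiles of 37.8 and 68.0. In the combined list the median score was 0.633 against 0.468, at a median percentile of 65.5, and 5 of the 8 were above the list's median. Widths were above the list's median in 7 of 11 and 10 of 14 regions, against 50% by construction. Among regions of like width, with each list divided into 20 groups by width, the median score percentiles were 28.6 and 57.5 in the replicates. In the combined list the like-width value was 21.1, so there the locus stood below the middle once width was matched. None of the regions reached 10 kb in either replicate (10.3% and 6.18% of all regions did), where 4 of 8 did in the combined list (11% of all).

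Weighted by bases, the score of the marked sequence at dpp was 0.698 in replicate 1, against 0.845 for all marked sequence of 2L. In replicate 2 it was 0.803, against 0.806 for the arm. In the combined list it was 0.668 against 0.699. The transcription unit had a higher value than the downstream part in both replicates, at 0.732 against 0.670 in replicate 1 and 0.837 against 0.756 in replicate 2. In the combined list these parts were nearly level, at 0.665 and 0.662.

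The windows closest to dpp in coverage had higher scores, though not every window of similar coverage did. The 5 windows of 2L most like dpp in covered share, by the distance between their values in both replicates, were 2L:8370001-8440000, 2L:13760001-13830000, 2L:5220001-5290000, 2L:4940001-5010000 and 2L:6480001-6550000. They were covered to between 63.2% and 67.0% in replicate 1 and between 71.7% and 77.6% in replicate 2. Their base-weighted scores ran from 0.792 to 1.09 and from 0.828 to 1.20, all above dpp's 0.698 and 0.803. The 3 windows with more coverage than dpp in both replicates ran from 1.15 to 1.21 and from 1.03 to 1.19. They were above all 5 in replicate 1 but within the range of the 5 in replicate 2. Windows a little further off, chosen after their values were seen, went below dpp in replicate 2: 2L:18940001-19010000 scored 0.734 there and 2L:2840001-2910000 scored 0.797.

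In the replicate lists the 8 windows named first also held fewer regions than dpp, with 1 exception. The 5 most alike held between 4 and 13 regions in replicate 1 and between 5 and 10 in replicate 2, where dpp held 11 and 14. Only 2L:6480001-6550000, with 13 regions in replicate 1, exceeded dpp, and none of the 8 did in replicate 2. Over all 328 windows, more regions than at dpp were found in 5 in replicate 1 and in 3 in replicate 2. In the combined list, where neighbouring regions were joined at dpp, its 8 regions stood at percentile 68.3, and 2 of the 8 windows held more, 2L:8370001-8440000 with 10 and 2L:6480001-6550000 with 11. These are descriptions of chosen windows and were not tested.

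**Figure D3:**
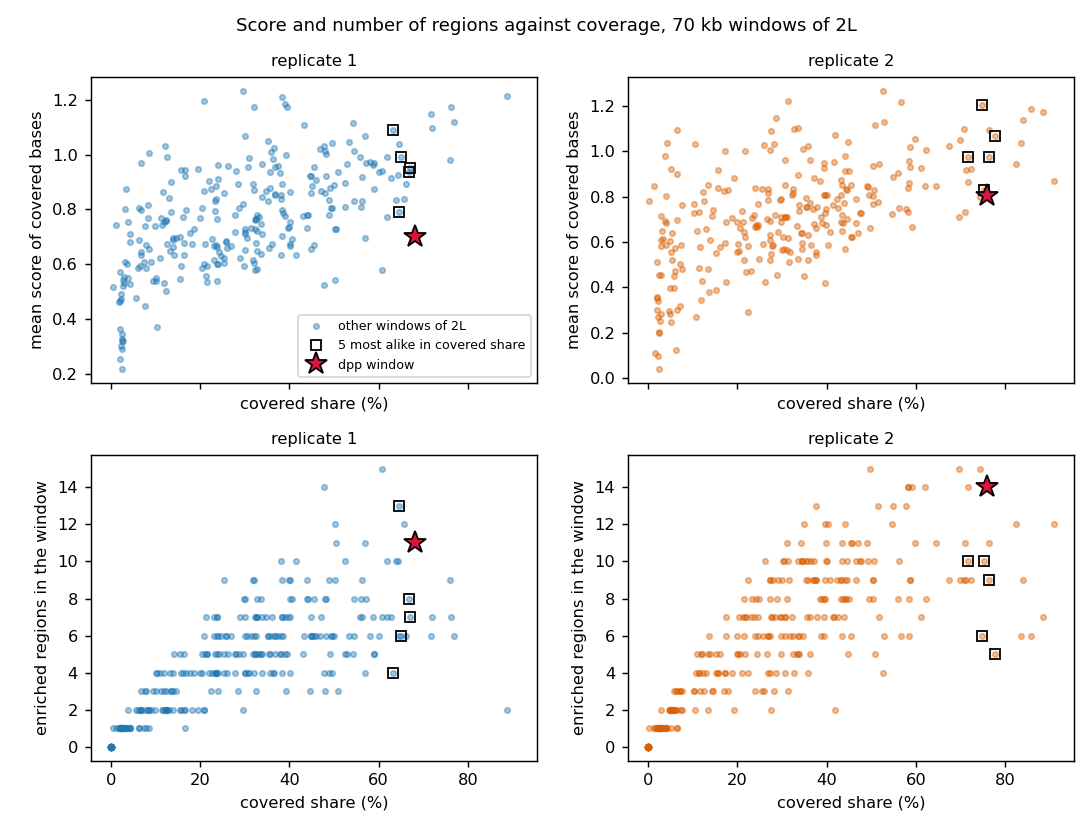
Each point is a 70 kb window of 2L, with its covered share (%) on the x axis and either the mean deposited score of its covered bases (upper panels) or its number of enriched regions (lower panels) on the y axis, for replicate 1 (left) and replicate 2 (right). The star marks the dpp window, which lies below all 5 windows most alike in covered share (squares) in score, and above 4 of them in replicate 1 and all 5 in replicate 2 in number of regions.

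The replicates marked largely the same bases of the locus. They shared 41.9 kb of the 59.0 kb marked in either, or 71.0% of the union, while 5.88 kb was marked in replicate 1 alone, 11.3 kb in replicate 2 alone and 11.0 kb in neither. Over all of 2L the shared part of the union was 59.6%. The median over the 284 windows with any marked base was 56.6%, which puts dpp at percentile 77.6. Lists that each cover most of a window must share part of it, so this percentile is no separate sign of agreement. All 8 of the windows like dpp or above it had a larger shared part, from 74.3% to 91.3%. By parts of the locus the shared part was 75.0% upstream, 69.4% in the transcription unit and 71.5% downstream.

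Counted as regions, 10 of 11 in replicate 1 met a region of replicate 2 and 13 of 14 in replicate 2 met one of replicate 1. The shares over all regions of those lists were 90.1% and 75.3%, so the share in replicate 1 was close to that of the whole list. Meeting needed only 1 shared base, which is easily reached where the other replicate covers most of the window. The shares over all regions come largely from sparser sequence, so the higher share in replicate 2 is no separate sign of agreement. Of the 8 combined regions, 6 met both replicates, where 60.7% of all combined regions did, and 1 met neither (8.5% of all). Every base marked in both replicates was in the combined list, which also took in 4.18 kb of the window that was in neither. The exact edges at the locus were less alike than the blocks. Of the 22 starts and ends in replicate 1, 7 lay within 200 bases of the nearest edge of the same kind in replicate 2. Another 11 lay over 1000 bases away, and the median difference was 994.5 bases. These distances were not taken over all edges of 2L, so they cannot be read as particular to dpp.

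The marked locus ended abruptly on the downstream side. After the last region at dpp came an unmarked stretch of 78.5 kb in replicate 1 (2L:2495121-2573659) and of 70.5 kb in replicate 2 (2L:2493018-2563557), the 51st longest of 1252 gaps on 2L and the 50th of 1677. On the upstream side the nearest region outside the window, which the rule left out, was 2L:2413333-2416050 in replicate 1 (score 0.554) and 2L:2414096-2416203 in replicate 2 (score 0.646), 3.95 and 3.80 kb before the window. An unmarked stretch of 29.9 kb in replicate 1 and 30.3 kb in replicate 2 lay beyond it. Between these 2 stretches the mark formed an island of 81.8 kb in replicate 1 and 78.9 kb in replicate 2, covered to 67.9% and 73.8%, most of it inside the dpp window.

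In the 100 kb after the window 16.6% and 16.4% of bases were marked (mean 16.5% ± 0.107, SD, n = 2), and in the 100 kb before it 22.7% and 25.4% (24.1% ± 1.93). Both flanks were thus below the 25.1% and 26.4% of the arm in the respective replicate. The neighbouring marked blocks were those from about 75 to 40 kb before the start of the transcription unit and from 145 to 160 kb after it, and both replicates held them.

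**Figure D4:**
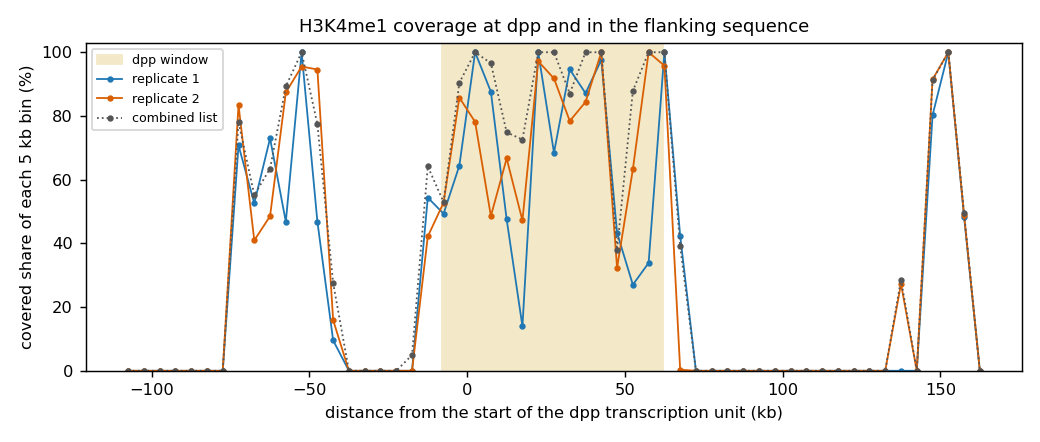
Share of bases (%) inside enriched regions in 5 kb bins, against distance from the start of the dpp transcription unit (kb), for replicate 1, replicate 2 (solid lines) and the combined list (dotted); shading marks the dpp window. Coverage is 0% in all lists from 70 to 135 kb and from -40 to -20 kb, and within the window it is at most 47.2% in either replicate in the bin from 15 to 20 kb and at most 43.3% in the bin from 45 to 50 kb.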

How the data were processed

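The submitters' processing notes name the aligner Bowtie 0.12.7, and the file headers name FlyBase release 5. No source used here gives the region caller, its threshold or the way the combined list was made. Whether reads could be assigned within gaps was not tested. Each region carries 1 deposited score, used as the authors made it. The labels record each input as the one used for the region list of the like-numbered ChIP sample.

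Depleted regions were set aside. A base counted as covered if any enriched region of a list held it. Percentiles count ties at their midpoint. Windows were consecutive, without overlap and aligned to the dpp window. No test was run. The window, its edges and the measures were chosen with earlier results of these data known. The rule for naming covered every region at the locus, gaps of at least 2 kb and the 5 most alike windows. Release 5 gene models and genome sequence were not used here. The 3 windows above dpp, the openings shared by the lists and the stretches beside the locus were singled out after their values were seen.

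Alternatives were the combined list, the higher-scoring 50% of regions, merging of regions closer than 500 bases, regions overlapping the other replicate by 50% of the shorter, other windows and edges, and each replicate left out. Computations used Python 3.11.15, NumPy 2.4.6 and pandas 2.3.3, and plots used Matplotlib 3.10.9. The interval functions were tested on simulated data.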

Additional observations from a re-analysis of the deposited data

How the results depend on the processing

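No paired analysis was possible because no region list was at hand for the inputs. Of 44 alternatives to 7 results, 23 moved the value by less than 1 SD over the replicates. However, 10 of these left out a replicate, which with 2 replicates must fall within 1 SD. The other 21 were counted as moved. They include all alternatives for the shared part of the union, which has 1 value for both replicates and so no SD to judge by. The combined list gave covered shares of 88.6% (window), 89.7% (transcription unit) and 87.1% (downstream), a window percentile of 99.2 and a longest gap of 3708 bases. The higher-scoring 50% of each list gave 53.0%, 53.8% and 54.8%, a percentile of 91.5, a shared part of the union of 51.4% and a longest gap of 13296 bases. Fewer regions must lower coverage and lengthen gaps, but they need not lower the percentile, since all windows were filtered alike. Merging regions closer than 500 bases gave 73.0% for the transcription unit and a shared part of 71.4%. With only regions that overlap the other replicate by 50% of the shorter, these were 65.7% and 75.5%. A 100 kb window was covered to 56.9% at percentile 92.4, a 50 kb window stood at percentile 94.9, and windows at every 10 kb gave 96.9. Moving the edges of the transcription unit by 2 kb gave 73.0% outwards and 68.5% inwards. Leaving out either replicate gave 68.2% to 75.9% for the window, 70.6% to 71.8% for the transcription unit, 64.8% to 77.4% downstream, percentiles of 97.1 to 98.0 and longest gaps of 5223 to 6616 bases. The median score percentile was 52.9 over the replicates and 43.1 among regions of like width, but the replicates differed by more than that. Causes were not tested. Read depth is unknown.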
